A study of Homo sapiens and Mus musculus with 20 samples.

Results

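A1CF and ADAMTS16 are the genes nearest to the peaks of ranks 2 and 3 by fold enrichment in the list of full-length Satb1 in MCF10A cells. Their surroundings were taken as each gene body plus 500 kb on either side, in GENCODE annotation on GRCh37 (hg19). This gave chr10:52059169-53145435 around A1CF and chr5:4640443-5820417 around ADAMTS16. Peaks of the 5 ChIP-seq lists that shared at least 1 bp were merged into sites. The A1CF window held 28 sites and the ADAMTS16 window 23, together 51 of 76660 sites in the genome. The full-length list had 9 peaks in each window, 18 of its 22877. The genes were chosen by fold enrichment in the full-length list, so that value is given throughout as a description and supports nothing.

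Satb1 is a chromatin organiser best known from thymocytes, where it binds A/T-rich DNA and shapes the folding of gene loci. It has an N-terminal oligomerisation domain, CUT domains and a homeodomain, and the CUT domains and homeodomain contact DNA. A1CF encodes the RNA-binding cofactor of the cytidine deaminase APOBEC1, which edits apolipoprotein B mRNA in the intestine and, in some species, the liver. ADAMTS16 encodes a secreted zinc metalloprotease of the ADAMTS family, enzymes that act on the extracellular matrix.

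MCF10A is a human mammary epithelial line without native Satb1, and the lines used here carried cumate-inducible Satb1 fused to eGFP. The fusions were full-length Satb1, Satb1 without its homeodomain (∆HD), and a construct of the N-terminal domain and the first CUT domain (N-C1). The lines were sorted to the same fluorescence gate, and chromatin was precipitated with a GFP antibody. Full-length cells were also treated for 2 h with the topoisomerase I inhibitor camptothecin or the topoisomerase II inhibitor ICRF-193. Accessible chromatin was mapped by ATAC-seq in native MCF10A and in MCF10A expressing Satb1. Each condition had 1 list, so no difference between lists has a replicate check and none was tested. A site absent from a list is a site that did not reach the threshold there.

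The ChIP-seq lists held 22877 (full-length), 50537 (∆HD), 62856 (N-C1), 24475 (camptothecin) and 37350 (ICRF-193) peaks. The study's methods give a range of read depth over all ChIP-seq libraries but no depth for each list. Fold enrichment is the pileup of ChIP fragments at the summit over the local background from input DNA, and the rank of a peak is its place by fold enrichment in its own list. The promoters of 8 of 8 epithelial marker genes (KRT5, KRT14, KRT17, TP63, EGFR, LAMB3, CDH1 and ITGB4) overlapped ATAC peaks in both cell states, against 75.5% and 79% of all protein-coding genes. Of 5 blood cell markers 1 did so in native cells and 2 in Satb1 cells, and of 6 liver markers 1 and 3 did so. The promoter of A1CF itself, among the liver markers, overlapped no ATAC peak in either state, and neither did that of ADAMTS16.

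The sequences under the strongest peak of each window are shown first because the sites differ in how the Satb1 consensus is laid out. The consensus has 8 words in pairs of reverse complements: CTAATAA pairs with TTATTAG, then CTAATAG pairs with CTATTAG, then CTATTAA pairs with TTAATAG, and lastly TTAATAA pairs with TTATTAA. The set is its own reverse complement, so a match on either strand is the same match. Capitals mark matches, overlapping matches were counted separately and run together in capitals, and 96.6% of all full-length peaks held at least 1 match in 400 bp at their middle. Each run is 300 bases around the full-length summit, on the plus strand of hg19, at chr10:52621190-52621489 and chr5:4816039-4816338.
A1CF intron 2: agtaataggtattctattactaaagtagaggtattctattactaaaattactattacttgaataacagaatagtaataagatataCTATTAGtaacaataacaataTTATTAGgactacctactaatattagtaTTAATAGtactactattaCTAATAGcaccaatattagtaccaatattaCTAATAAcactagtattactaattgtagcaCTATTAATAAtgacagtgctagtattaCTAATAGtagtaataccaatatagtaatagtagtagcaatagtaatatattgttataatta
Upstream of ADAMTS16: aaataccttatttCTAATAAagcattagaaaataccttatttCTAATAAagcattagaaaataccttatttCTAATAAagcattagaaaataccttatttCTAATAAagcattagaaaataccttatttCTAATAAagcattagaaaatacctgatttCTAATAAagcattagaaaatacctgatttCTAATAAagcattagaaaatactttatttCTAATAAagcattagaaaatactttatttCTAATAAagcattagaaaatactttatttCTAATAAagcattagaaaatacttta
In the run from A1CF, 8 matches of several different words lay at uneven distances. In the run upstream of ADAMTS16, 10 matches of the single word CTAATAA came at a regular distance. The repeating unit there was 29 bases long, and the form ttatttCTAATAAagcattagaaaatacc occurred 10 times between chr5:4815843 and chr5:4816190.

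The strongest site of the A1CF window lay in intron 2 of A1CF at chr10:52620692-52622073, its summit 24.05 kb downstream of the start of the canonical transcript. It was the only site of any list within the gene. Fold enrichment was 56.8 in the full-length list (rank 2), 55.8 in the ∆HD list (rank 31), 78.6 in the N-C1 list (rank 10), 67.4 after camptothecin (rank 7) and 72.7 after ICRF-193 (rank 14). The site was therefore among the 31 strongest peaks in each of the 5 lists. Its full-length peak was 1382 bp wide, against a list median of 314 bp and a median of 1109 bp among the 100 strongest peaks. It held 17 consensus matches over 1088 bp, 8 of them in the central 400 bp, and the commonest words were CTAATAG (5 times), CTATTAG (3 times) and TTAATAG (3 times). The 16 distances between neighbouring matches ran from 3 to 185 bp, and none occurred more than 2 times.

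The strongest site of the ADAMTS16 window was intergenic, at chr5:4815548-4816695, and lay 324 kb upstream of ADAMTS16, its nearest protein-coding gene. Fold enrichment was 56.5 in the full-length list (rank 3), 32.0 in the ∆HD list (rank 267), 40.2 in the N-C1 list (rank 811), 66.0 after camptothecin (rank 11) and 75.04 after ICRF-193 (rank 8). The site thus stood among the 11 strongest peaks in the 3 lists of full-length Satb1, but not in the lists of the constructs that lack the homeodomain. Its full-length peak was 1148 bp wide and held 19 matches, all of them CTAATAA, with 29 bp between neighbours in 18 of 18 cases. The matches spanned 529 bp, from chr5:4815849 to chr5:4816377. In the full-length list only 0.127% of peaks held as many matches over their whole width, and 0.219% held as many as the A1CF peak.

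**Figure D1:**
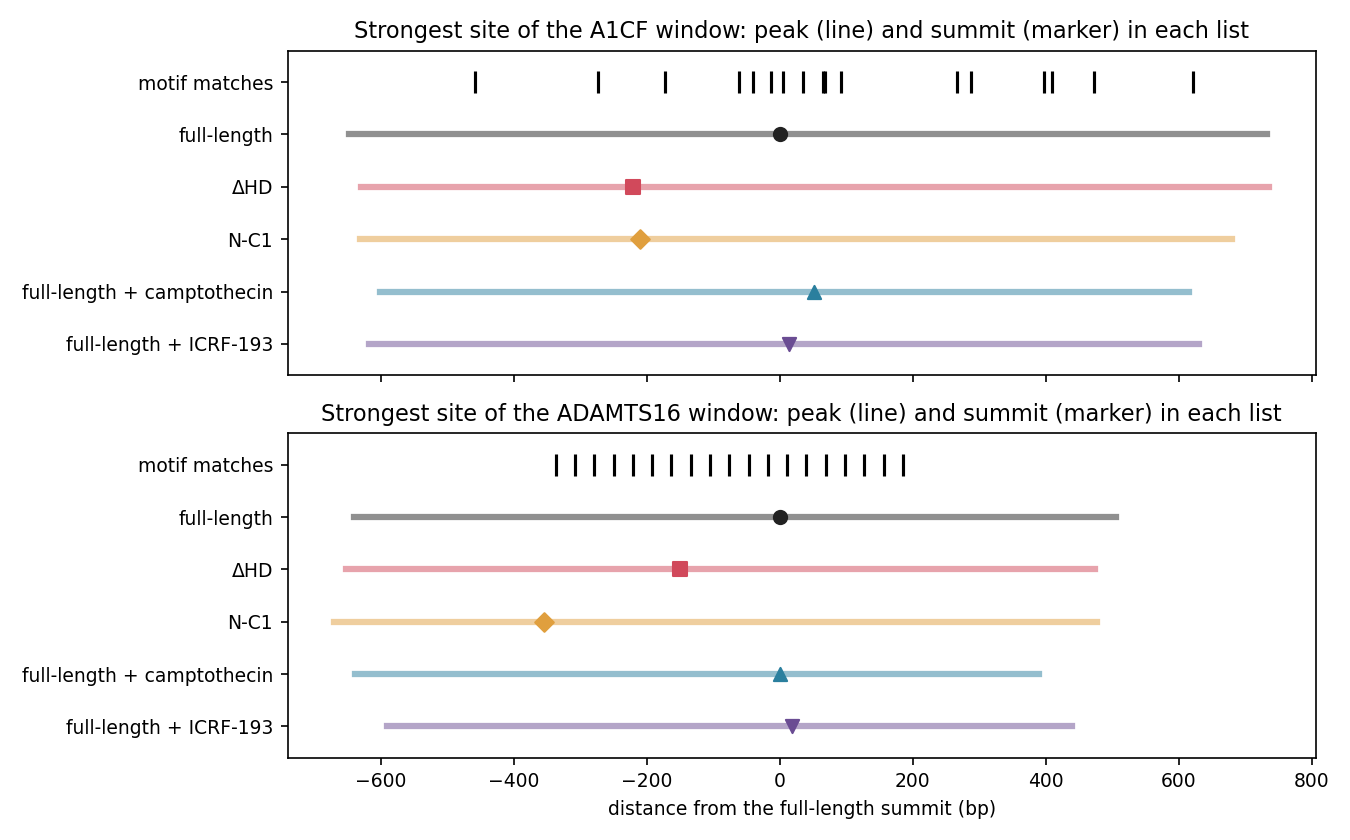
Peaks (lines) and summits (markers) of the 5 ChIP-seq lists and consensus matches (ticks) at the strongest site of each window, by distance from the full-length summit in bp. The 17 matches of the A1CF site are unevenly placed and the 19 upstream of ADAMTS16 stand 29 bp apart, and the ∆HD and N-C1 summits lie to the left of the full-length summits in both panels.

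The ranks of the 100 strongest full-length peaks put these values in context. In the N-C1 list their median rank was 189, with 99 of 100 found, and 89 of them ranked above the site upstream of ADAMTS16, whereas 8 ranked above the A1CF site. In the ∆HD list their median rank was 787, with 33 above the site upstream of ADAMTS16 and 8 above the A1CF site. After camptothecin and ICRF-193 all 100 were found, with median ranks of 51 and 53. The site upstream of ADAMTS16 was passed by 10 of them after camptothecin and by 7 after ICRF-193.

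The columns of the lists also allowed the ChIP reads at each summit to be recovered, because fold enrichment and p-value together fix a whole number of reads and a local background. Of 136 pairs of site and list, 125 fitted the lowest background of their list, and no other solution was sought for them. Each remaining pair was searched and had a single solution. At the A1CF site there were 412 reads with full-length Satb1 (95% exact Poisson interval 373 to 454), 294 with ∆HD, 451 with N-C1, 371 after camptothecin and 371 after ICRF-193. At the site upstream of ADAMTS16 there were 410 (371 to 452), 168, 230, 363 and 383 reads in the same order. Within a list the values can be set against each other as a quotient, A1CF over ADAMTS16. With full-length Satb1 it was 1.005 (95% exact interval 0.874 to 1.15), a value near 1 that follows from the choice of neighbouring ranks. It was 1.02 after camptothecin (0.882 to 1.18) and 0.969 after ICRF-193 (0.838 to 1.12). It was 1.75 with ∆HD (1.44 to 2.13) and 1.96 with N-C1 (1.67 to 2.31). Read maxima were taken over peaks at the lowest background of each list, between 74.4% and 82.2% of its peaks. Peaks on a higher background were left out and may hold more reads. The maxima so taken were alike in the 5 lists, from 428 to 483 reads. In the full-length list both sites stood near the maximum of 428, at 96.3% and 95.8% of it. Where reads at a position are collapsed, values near such a maximum are drawn together, so a quotient near 1 may understate a difference. The intervals cover counting error only, and the quotients were not compared between conditions.

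**Figure D2:**
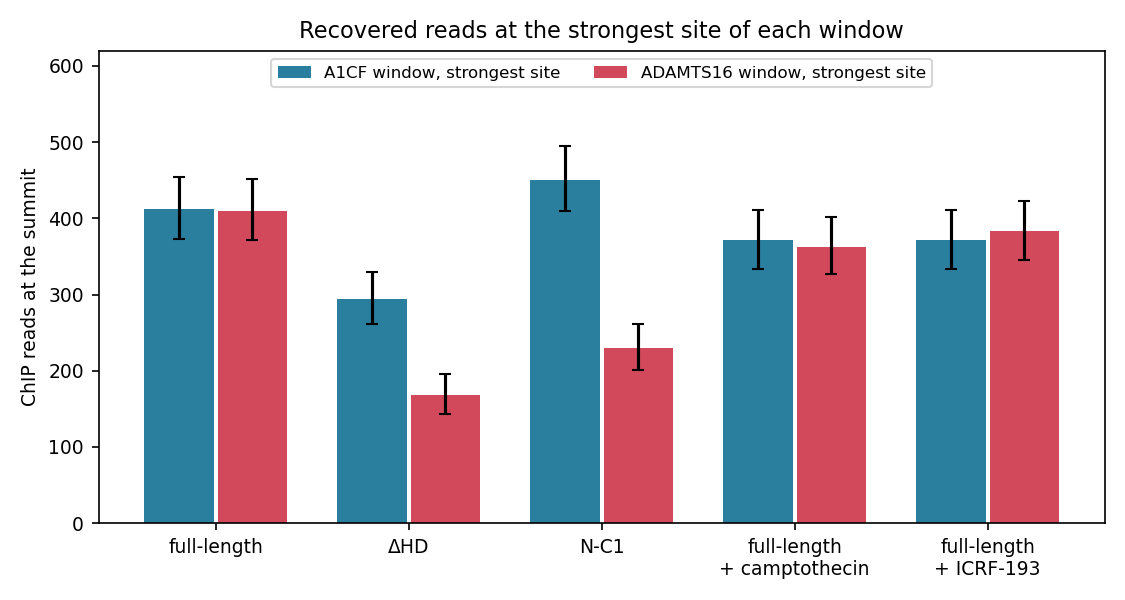
ChIP reads at the summit (linear axis from 0) of the strongest site of each window in the 5 lists, recovered from fold enrichment and p-value, with 95% exact Poisson intervals for counting error. The bars are alike within each of the 3 full-length lists, and the A1CF bar is the higher with ∆HD (294 against 168 reads) and N-C1 (451 against 230 reads).

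The order of the strongest full-length peaks was finer than their counting error. Peaks were counted only where they stood at the lowest background, 17013 of 22877 in the full-length list, so the counts are lower limits. Among those of the full-length list the largest recovered value was 428 reads. In that list 35 others lay within the interval of the A1CF site and 40 within that of the site upstream of ADAMTS16. The ranks of 2 and 3 are therefore not separated from those of the peaks counted here. At the A1CF site 21 other such peaks of the ∆HD list and 47 of the N-C1 list fell within its interval. Local background stood at the lowest value of the list in all 5 lists at both sites.

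The summits moved within these wide peaks. At the A1CF site the ∆HD and N-C1 summits stood at -221 and -211 bp from the full-length summit, and those after camptothecin and ICRF-193 at 52 and 14 bp. At the site upstream of ADAMTS16 they stood at -150 and -354 bp for ∆HD and N-C1, and at 0 and 18 bp after the drugs. The N-C1 summit there lay outside the run of matches, whose first match was at chr5:4815849, against a summit at chr5:4815835. In the full-length list 9 of the 17 A1CF matches and 14 of the 19 upstream of ADAMTS16 lay within 200 bp of the summit. Summits of all lists spread over 273 and 372 bp at these sites, against a median of 74 bp over the 17 sites with a full-length peak.

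The other 8 full-length peaks of the A1CF window had fold enrichments from 5.68 to 9.79, near the list median of 7.32. The first, at chr10:52210269-52210683, lay in intron 5 of SGMS1, which encodes a sphingomyelin synthase. Its fold enrichment was 9.79 with full-length Satb1 (rank 6634), 9.72 with ∆HD, 9.34 with N-C1, 15.9 after camptothecin (rank 2436) and 18.8 after ICRF-193 (rank 3085). It held 6 matches in 400 bp, the most in this window after the A1CF site, and 4 of them fell in 150 bases around the summit, at chr10:52210468-52210617, shown here for comparison.
SGMS1 intron 5: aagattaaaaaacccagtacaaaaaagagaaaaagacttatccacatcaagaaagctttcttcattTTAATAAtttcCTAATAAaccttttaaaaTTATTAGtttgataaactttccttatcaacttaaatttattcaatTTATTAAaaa
A peak between SGMS1 and ASAH2B, a relative of the neutral ceramidase gene, at chr10:52479330-52479686 had values of 8.83 (full-length), 7.26 (∆HD), 12.8 (N-C1), 7.54 (camptothecin) and 9.68 (ICRF-193), with 4 matches. The remaining peaks lay upstream of or within PRKG1, which encodes cGMP-dependent protein kinase 1. The last of them, in intron 2 of PRKG1 at chr10:53138850-53139376, reached 22.6 in the ∆HD list (rank 1074), against 9.79 (full-length), 14.7 (N-C1), 13.5 (camptothecin) and 16.7 (ICRF-193). The peaks at chr10:52820149-52820442 and chr10:52829841-52830163 lay within the annotated span of PRKG1 but upstream of its canonical transcript. The first had values of 6.91 (full-length), 9.34 (∆HD), 11.6 (N-C1), 6.46 (camptothecin) and 10.5 (ICRF-193). The second had 7.74, 4.99, 10.0, 5.19 and 5.77 in the same order. A peak in PRKG1 intron 1 at chr10:52904125-52904409 had 6.78, 8.77, 11.9, 6.097 and 7.53. Each of these 3 peaks held 2 matches, fewer than the median of 3 over all full-length peaks.

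A full-length peak of the A1CF window was missing from another list in 2 cases. The peak at chr10:52732948-52733184, 17.5 kb from PRKG1, was absent from the ∆HD list and was weak elsewhere, with 5.68 (full-length), 5.87 (N-C1), 6.097 (camptothecin) and 5.97 (ICRF-193). The peak in PRKG1 intron 2 at chr10:52986188-52986532 was absent from the camptothecin list, while its values were 7.60 (full-length), 10.7 (∆HD), 15.2 (N-C1) and 8.11 (ICRF-193). Together the windows lost 1 of 18 full-length peaks in the ∆HD list, 0 in the N-C1 list, 2 in the camptothecin list and 0 in the ICRF-193 list. In other words 94.4%, 100%, 88.9% and 100% of the 18 peaks were found again, against 88.6%, 95.2%, 81.7% and 92.9% of all full-length peaks. The exact 95% interval of the lowest of these shares, 65.3% to 98.6%, holds the corresponding background.

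In the ADAMTS16 window only 1 of 9 full-length peaks lay within ADAMTS16. This peak, in intron 10 at chr5:5211735-5212052, had fold enrichments of 9.79 (full-length, rank 6634), 13.1 (∆HD), 10.6 (N-C1), 13.0 (camptothecin) and 15.9 (ICRF-193), with 3 matches. The second strongest peak of the window was at chr5:4791539-4791965, 348 kb upstream of the gene. It had values of 14.04 (full-length, rank 3511), 22.4 (∆HD, rank 1102), 22.9 (N-C1, rank 2831), 12.1 (camptothecin, rank 4169) and 15.1 (ICRF-193, rank 4706), again with 3 matches. Unlike the strongest site, it thus stood higher in the ranking of the constructs than in that of full-length Satb1.

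The upstream intergenic stretch held 4 further full-length peaks. At chr5:4687370-4687653 the values were 8.42 (full-length), 8.02 (∆HD), 10.2 (N-C1), 5.74 (camptothecin) and 7.72 (ICRF-193). At chr5:4722066-4722370 they were 5.68, 7.26, 6.04, 5.74 and 8.31 in the same order. A pair of peaks at chr5:4752600-4752866 (7.74) and chr5:4753134-4753352 (5.41) merged into a single site because a ∆HD peak of 915 bp spanned both. The largest values of that site in the other lists were 8.96 (∆HD), 13.2 (N-C1), 5.55 (camptothecin) and 8.11 (ICRF-193), and the second peak of the pair was absent from the camptothecin list. These 4 peaks ranked from 8664 to 18910 in the full-length list. A peak in intron 5 of ICE1, a gene of small nuclear RNA transcription, at chr5:5442947-5443256 had 5.54 (full-length), 11.2 (∆HD), 14.4 (N-C1), 8.81 (camptothecin) and 12.2 (ICRF-193).

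The weakest full-length peak of the windows, at chr5:5125868-5126132, lay 14.3 kb upstream of ADAMTS16. Its values were 4.62 (full-length, rank 21903 of 22877), 6.14 (∆HD), 6.86 (N-C1), 3.12 (camptothecin, rank 24424 of 24475) and 4.19 (ICRF-193, rank 36064 of 37350). It was the only full-length peak of the windows whose local background stood above the lowest value of its list, at 5.42 against 4.83 reads, and the same held in each of the other 4 lists. An ATAC peak began 0.153 kb away in native cells and 0.268 kb away in Satb1 cells.

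**Figure D3:**
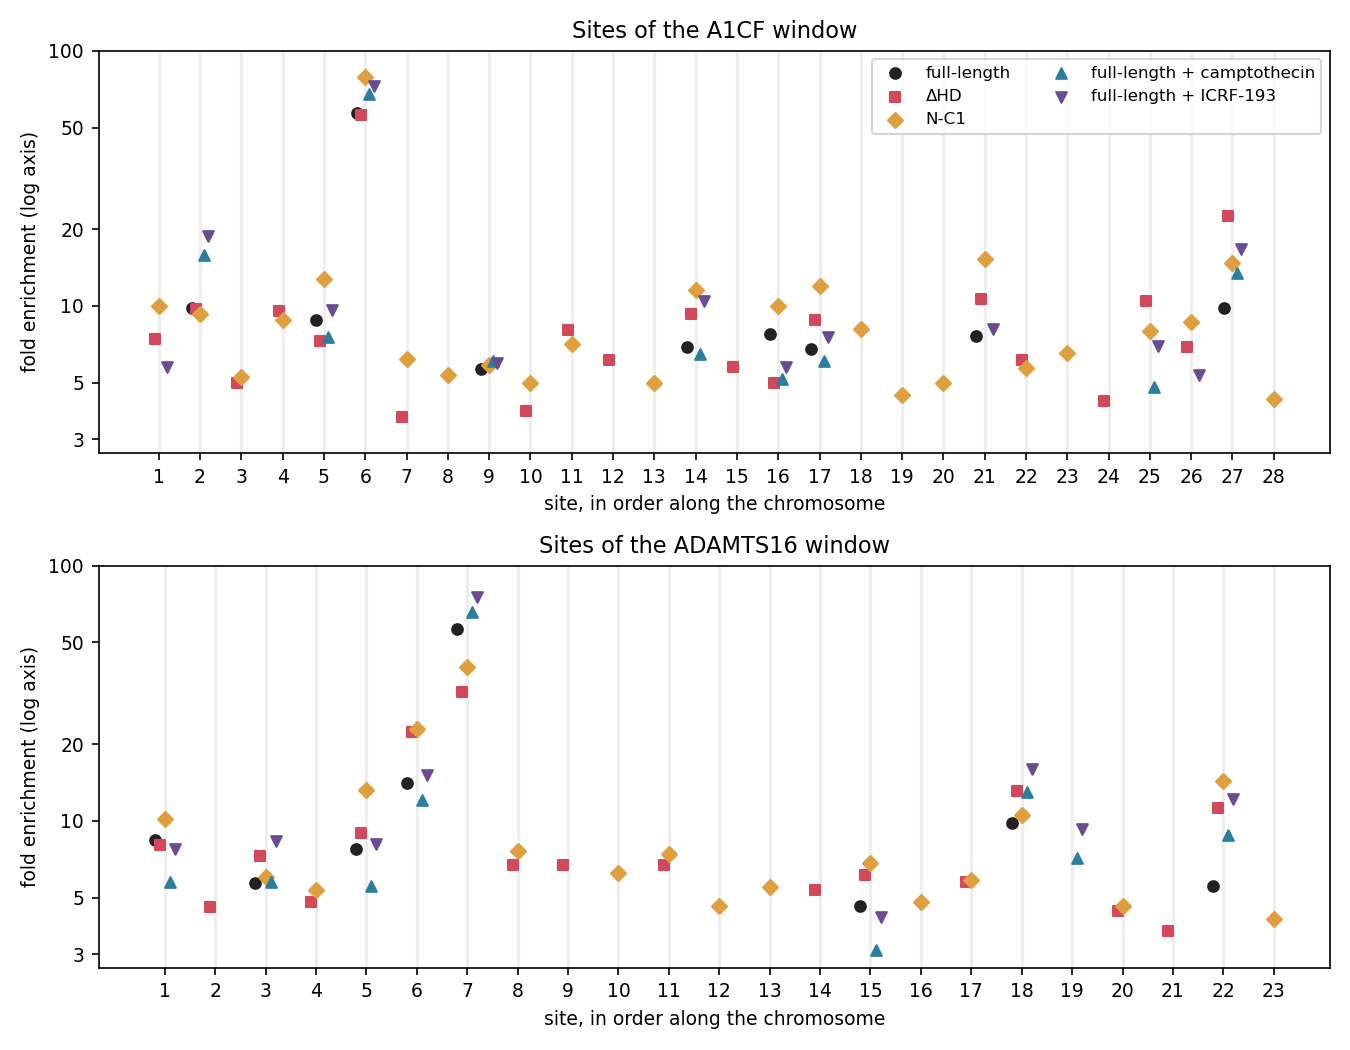
Fold enrichment (log axis) at each of the 28 sites of the A1CF window and 23 of the ADAMTS16 window, in order along the chromosome, with a marker for each list in which the site has a peak. Site 6 of the A1CF window (55.8 to 78.6) and site 7 of the ADAMTS16 window (32.0 to 75.04) stand above all others of their window in every list.

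Most sites were not found with full-length Satb1, in the windows as in the genome. Of the 51 sites 17 (33.3%) had a peak in the full-length list, against 29.6% of all sites. In all 5 lists were 15 (29.4%), against 21%. Both counts include the strongest site of each window, which was chosen by its full-length peak. A peak of the ∆HD list was present at 37 sites (65.8% of all sites in the genome), of the N-C1 list at 43 (81.5%), of the camptothecin list at 18 (31.7%) and of the ICRF-193 list at 21 (48.5%). A further 30 sites occurred with ∆HD, N-C1 or both and in no other list: 12 with N-C1 alone, 11 with both constructs and 7 with ∆HD alone. In the genome these patterns took 20.8%, 16.8% and 10.2% of sites. Their values overlapped those of sites with a full-length peak but had lower medians. In the N-C1 list 23 of the 30 had a peak, with a median fold enrichment of 5.35 (4.13 to 8.82), and the 17 sites with a full-length peak had a median of 11.9 (5.87 to 78.6). In the ∆HD list the median was 5.56 (3.67 to 9.53) over 18 of the 30, and 9.53 (4.99 to 55.8) over 16.

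The site without a full-length peak that was largest in the ∆HD list was in PRKG1 intron 2 at chr10:53121279-53121798, with 10.5 (∆HD), 7.95 (N-C1), 4.83 (camptothecin) and 6.94 (ICRF-193). The largest in the N-C1 list was in SGMS1 intron 6 at chr10:52154982-52155445, with 7.45 (∆HD), 10.0 (N-C1) and 5.77 (ICRF-193). It held 1 match and overlapped ATAC peaks in both cell states. In the ADAMTS16 window the largest such values were 6.69 in the ∆HD list, at 3 sites, and 7.60 in the N-C1 list, at chr5:4820408-4820799.

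A single site was found only after the drugs. It lay in intron 18 of ADAMTS16 at chr5:5282821-5283210, with 7.18 after camptothecin (rank 10312) and 9.29 after ICRF-193 (rank 10940), and held 4 matches. The pattern of both drug lists and no other took 1.10% of all sites. Its sequence around the summit after ICRF-193, chr5:5282920-5283069, is shown because 3 matches lie close together in an A/T content of 80%.
ADAMTS16 intron 18: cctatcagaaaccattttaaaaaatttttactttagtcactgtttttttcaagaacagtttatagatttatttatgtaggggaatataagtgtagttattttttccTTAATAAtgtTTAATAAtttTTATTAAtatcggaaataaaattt

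**Figure D4:**
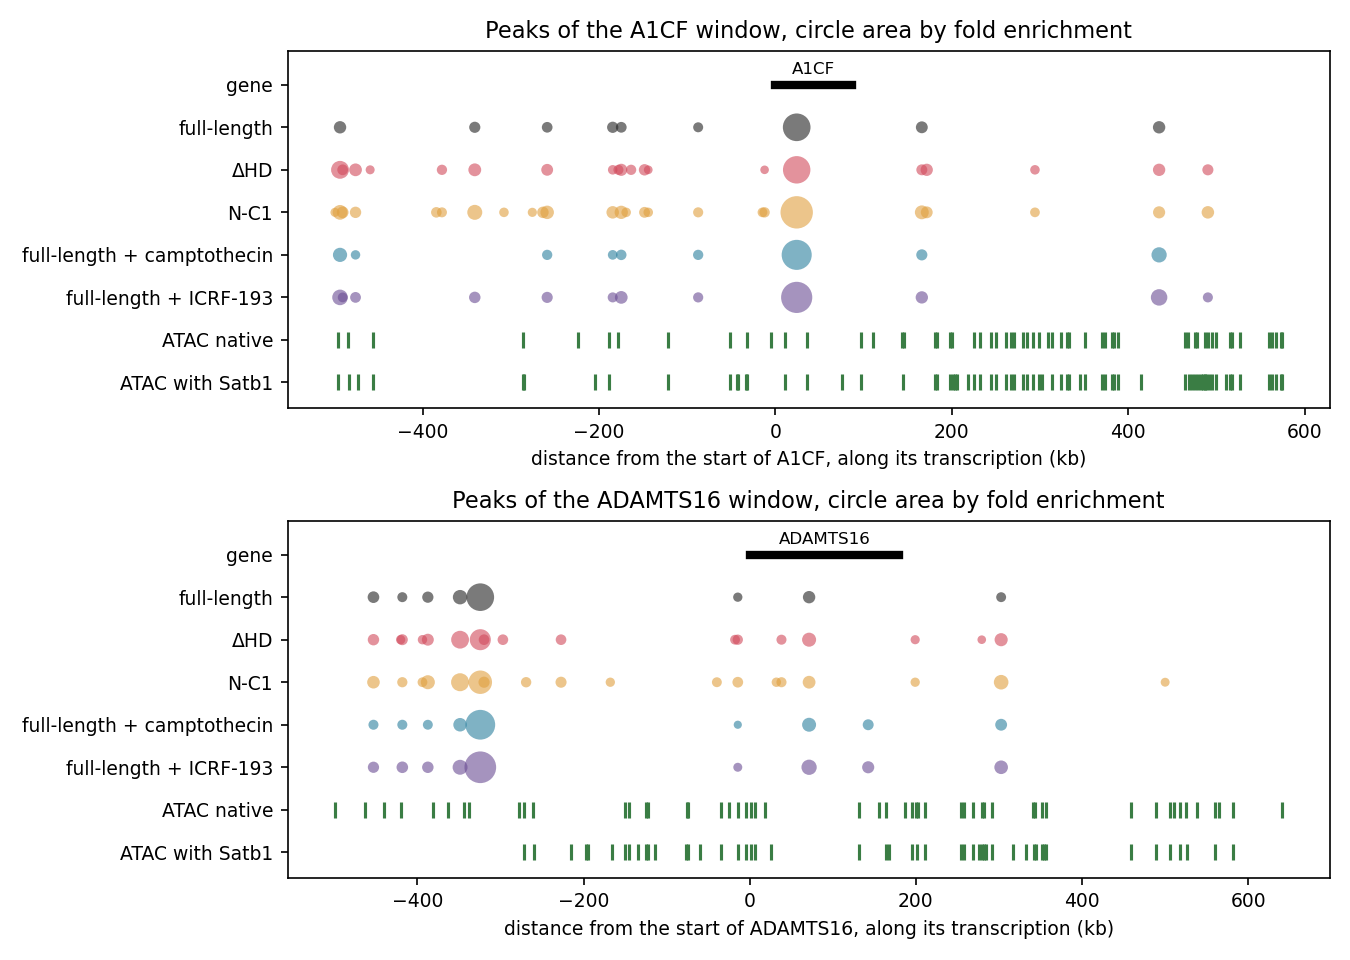
Peaks of the 5 ChIP-seq lists (circles, area rising with fold enrichment) and of the 2 ATAC-seq lists (ticks) by distance in kb from the start of A1CF or ADAMTS16 along its transcription. The largest circles lie in A1CF and 324 kb upstream of ADAMTS16, and full-length peaks within the genes number 1 and 1.

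Within the windows the strongest peaks held the most consensus matches. In the central 400 bp, however, the A1CF site was not rich in them among peaks of like strength. Over all 18 full-length peaks there were 2 to 14 matches in the central 400 bp, with a median of 3, which was also the median of all full-length peaks. Only the A1CF site (8) and the site upstream of ADAMTS16 (14) had 7 or more, a number reached by 1.7% of all full-length peaks. Among the 100 strongest full-length peaks the median was 9, above the A1CF site and below the site upstream of ADAMTS16. In 400 bp at the summit the A1CF site held 9. Over the whole peak the A1CF site held 17 and the site upstream of ADAMTS16 19, against a median of 12 among these 100. As a description, since fold enrichment chose the sites, full-length peaks with 8 matches had a median fold enrichment of 31.3 and those with 12 or more a median of 44.04, against 6.73 for 2 matches and 7.26 for 3. The A/T content of the central 200 bp was 67.5% to 77.5% over the 18 peaks (median 73.8%), against 57.7% to 69.7% in their flanks and a median of 72.5% in all full-length peaks. The strongest sites, with 76.5% and 77.5%, were matched or exceeded by 21.7% and 16.2% of all full-length peaks, and lay below the median of 81% of the 100 strongest.

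**Figure D5:**
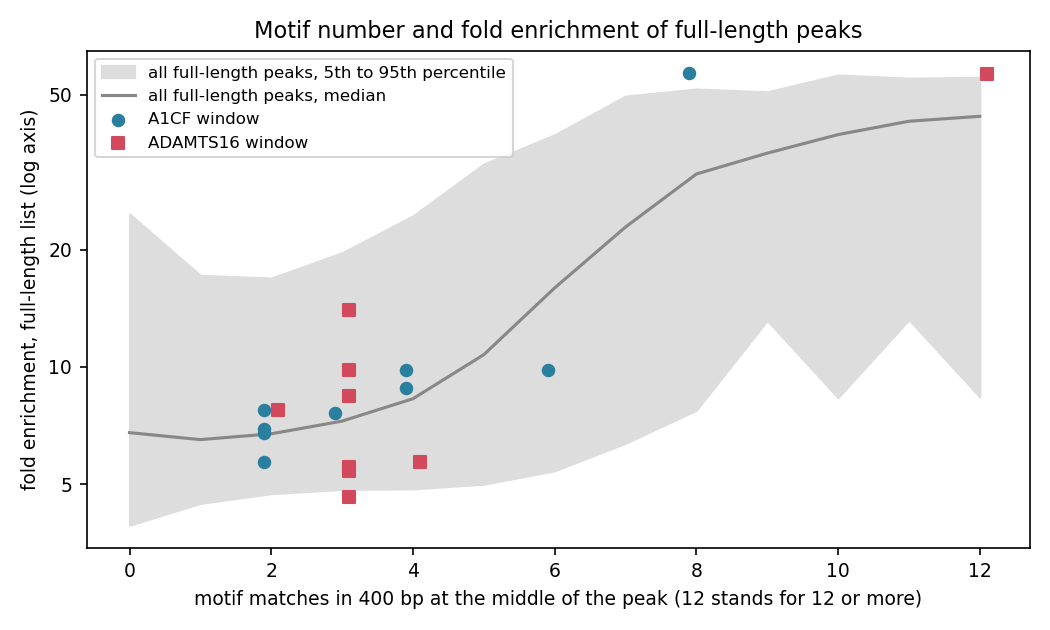
Fold enrichment in the full-length list (log axis) against the number of consensus matches in 400 bp for the 18 peaks of the windows, with the median and the 5th to 95th percentile of all full-length peaks. The peaks with 2 to 6 matches lie between 4.62 and 14.04, and the strongest peaks, with 8 and 14 matches (drawn at 12 or more), lie at 56.8 and 56.5.

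Most matches in the windows were not in peaks. The A1CF window held 1084 matches, 0.998 per kb, and the ADAMTS16 window 938, 0.795 per kb, against 0.756 per kb in the genome. Full-length peaks covered 3.97% and 4.26% of them, against 2.72% in the genome. The strongest sites held 17 of the 43 covered matches around A1CF and 19 of the 40 around ADAMTS16. These sites were chosen by full-length fold enrichment, so the higher shares are a description only. Of matches with no other match within 200 bp full-length peaks covered 0 of 646 and 1 of 561, against 0.289% in the genome. All 8 and 19 matches that had 7 or more matches within this reach, themselves included, lay in full-length peaks, against 86.3% of such matches in the genome. They belonged to the strongest site of each window, so this follows from the choice of those peaks.

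Groups of 4 or more matches with at most 100 bp between neighbours numbered 6 in the A1CF window and 4 in the ADAMTS16 window. Of these 4 and 2 overlapped full-length peaks, together 6 of 10, against 51.7% of 7093 such groups in the genome. A peak of any of the 5 lists overlapped 4 and 3 of them, against 75% in the genome, so neither count stood clearly apart from the background. A group of 4 matches at chr5:4843236-4843409 lay in a peak of the ∆HD list alone, at 6.69, and 17.1% of the 31-base words of this site occurred more than 1 time within it. The groups of 4 at chr10:52320074-52320108 in SGMS1, at chr10:52473119-52473222 and at chr5:4864693-4864836 had no peak in any list and no ATAC peak. A group of 4 matches was thus found both with and without a peak.

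Copies of the sequence elsewhere bear on whether reads can be placed. The words looked up were shorter than the study's reads of 75 bases, so a copied word does not by itself prevent placement. Words of 75 bases were not looked up elsewhere in the genome. Words of 31 bases from each full-length peak were looked up on both strands of the whole genome. In 15 of the 18 peaks no word occurred elsewhere, and the same held for 74.6% of all full-length peaks. At the A1CF site 14.7% of 1352 words did, and all of them lay at the right end of the peak, from chr10:52621837 to chr10:52622073, with none within 200 bp of the summit. At the site upstream of ADAMTS16 2.15% of 1118 words did, all at the left end, from chr5:4815582 to chr5:4815641. The centres of both strong peaks therefore had no 31-base copy elsewhere. The remaining peak with copies, between SGMS1 and ASAH2B at chr10:52479330-52479686, had 23.5% of its words elsewhere, and all 77 of these lay within 200 bp of its summit.

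Exact repeats inside the peak set the strong sites apart from each other. Of the words of the site upstream of ADAMTS16 46.2% occurred more than 1 time within the peak, a share reached by 0.210% of all full-length peaks. At the A1CF site the share was 4.59%, reached by 1.56%. None of the other 16 peaks had a repeated word. Among the 100 strongest full-length peaks 24 had such words, against 2.66% of all. When the peak upstream of ADAMTS16 was laid on itself shifted by 29 bp, 62.0% of its bases were equal, and at the A1CF site the best shift, 6 bp, gave 43.0%, against a median of 36.96% in all full-length peaks. Only shifts of 5 to 100 bp were tried. The A1CF peak did hold inexact direct repeats. Aligned to itself by BLAST, its longest same-strand match ran over 538 bp at 76.4% identity. Upstream of ADAMTS16 the longest ran over 493 bp at 95.7%. With words of 75 bases, the read length that the study states, the share fell to 30.5% of 1074 words upstream of ADAMTS16, within chr5:4815843-4816399, and to 0 of 1308 words at the A1CF site. Exact reads from those repeated words have more than 1 possible position within the array, and the full-length summit lies within that stretch.

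None of the 18 full-length peaks overlapped an ATAC peak of native or of Satb1-expressing cells, against 3.42% and 4.64% of all full-length peaks. A count of 0 allows a share of up to 16.7% (3 counts of 18), and the exact 95% interval reaches 18.5%, so no difference from these backgrounds was detectable. The distance to the nearest ATAC peak was 10.6 kb in both states at the A1CF site, and 13.1 kb in native and 51.6 kb in Satb1 cells at the site upstream of ADAMTS16. Over the 9 full-length peaks of the A1CF window its median was 14.7 kb in native and 14.6 kb in Satb1 cells, and in the ADAMTS16 window 5.86 and 76.4 kb, against 8.24 and 7.40 kb over all full-length peaks. Of the 51 sites 3 overlapped a native ATAC peak and 2 a Satb1 ATAC peak, against 4.2% and 4.89% of all sites. These were the SGMS1 site at chr10:52154982-52155445, a ∆HD site in PRKG1 at chr10:52823306-52823687 (native only) and a ∆HD site 903 bp upstream of ICE1 at chr5:5419549-5419874.

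Native and Satb1 ATAC peaks were compared in both windows. The A1CF window held 59 native and 71 Satb1 ATAC peaks, which covered 3.99% and 5.39% of it, and the ADAMTS16 window 53 and 49, which covered 2.597% and 2.97%. In the genome they covered 5.32% and 8.26%. Of the native peaks 91.5% in the A1CF window but 67.9% in the ADAMTS16 window overlapped a Satb1 ATAC peak, against 88.8% of all native peaks. Of the Satb1 ATAC peaks 74.6% and 71.4% overlapped a native peak, against 70.2% of all. From the left edge of the ADAMTS16 window there was no Satb1 ATAC peak for 228 kb, up to chr5:4868316, where native cells had 10 peaks with fold enrichments from 2.61 to 6.29. This stretch held 6 of the 9 full-length peaks, among them the strongest. The 17 native peaks without a Satb1 partner in this window had a median fold enrichment of 3.02, and the 36 with one had 4.49. With 1 list per state the difference between the states was not tested.

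The strongest ATAC peaks of the ADAMTS16 window lay 13.2 kb upstream of ADAMTS16 (33.2 in native cells) and at the promoter of ICE1 (27.2 in native and 19.9 in Satb1 cells). In the A1CF window the strongest native peak was in an intron of SGMS1 (35.6), and the promoters of SGMS1 (19.4 and 14.4), ASAH2B (10.6 and 8.17) and PRKG1 (3.94 and 2.95) overlapped peaks in both states. Of the 6 protein-coding genes reaching into the windows, only A1CF and ADAMTS16 had no accessible promoter, against 75.5% and 79% with one among all protein-coding genes.

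A1CF acts with partners in apolipoprotein B mRNA editing, and 10 genes of this machinery, APOB included, were examined. Of these 2 had a full-length peak in the gene body, against 20.7% of all protein-coding genes: CELF2 (3 peaks, up to 26.5) and RBM47 (1 peak of 10.5), both RNA-binding proteins. These were the longest of the list, at 538 and 208 kb, and the other 8 measured at most 42.6 kb. The promoters of 8 of 10 were accessible in both states, near the 75.5% (native) and 79% (Satb1) of all protein-coding genes. The exceptions were APOBEC1, the deaminase, and APOB, its substrate, neither of which had a peak of any ChIP-seq list in its body.

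Of the 19 ADAMTS genes 9 had a full-length peak in the gene body, against 20.7% of all protein-coding genes. The 9 were long, from 172 to 371 kb, while the other 10 ran from 9.66 to 235 kb. Of the 11 family genes of at least 80 kb 9 had a peak, against 60.3% of all protein-coding genes of that length, and of the 8 shorter ones 0 had. The largest numbers were 7 peaks in ADAMTS19 (up to 21.4), 6 in ADAMTS6 (up to 23.2) and 4 in ADAMTS3 (up to 13.2). The value within ADAMTS16, 9.79, was thus exceeded within 6 other family members, ADAMTS3, ADAMTS6, ADAMTS9, ADAMTS18, ADAMTS19 and ADAMTS20. Promoters were accessible in 15 of the 19 genes in native cells and in 16 in Satb1 cells. These counts are near the shares of 75.5% and 79% over all protein-coding genes. ADAMTS10, ADAMTS16 and ADAMTS20 had none in either state.

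For likeness, the largest fold enrichment within each protein-coding gene and 500 kb on either side was taken in the 5 lists on a log2 scale. Among 18133 genes the nearest to A1CF were GPATCH2, at a Euclidean distance of 0.36, and ARPC1A, ARPC1B, ATP5MF and ATP5MF-PTCD1 on chromosome 7, which share a peak and stand at 0.36. The GPATCH2 values were 50.5 (full-length), 59.1 (∆HD), 65.0 (N-C1), 61.4 (camptothecin) and 71.3 (ICRF-193). Nearest to ADAMTS16 were KCNRG, SPRYD7 and TRIM13 on chromosome 13, which share a peak and stand at 0.26, followed by C4orf19 and NWD2 on chromosome 4, at 0.31. The chromosome 13 values were 56.2 (full-length), 34.0 (∆HD), 47.7 (N-C1), 65.4 (camptothecin) and 72.5 (ICRF-193). These genes were picked by likeness over the same 5 lists, so like values follow from the choice.

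The edges of the windows were also examined. Just inside them the outermost full-length peaks were 9.79 at both ends of the A1CF window and 8.42 and 5.54 in the ADAMTS16 window. The nearest peaks outside had 5.68 and 6.09 around A1CF, and 4.17 and 7.87 around ADAMTS16. The last of these, at chr5:5820748-5821056, lay 500 kb from the gene, just past the limit.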

How the data were processed

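ChIP-seq of Satb1-eGFP fusions and ATAC-seq in MCF10A were analysed as 7 deposited peak lists of the 20 samples. The others, among them mouse VL3-3M2 lists, were not used here. The authors trimmed reads with cutadapt, aligned them to hg19 with Bowtie2 and ran MACS2 (for ChIP-seq with input DNA as control). The study's methods give a version for the trimming tool, a range of depth over the ChIP-seq libraries and default MACS2 settings. Versions of the aligner and peak caller, pooling of replicates and the depth of each list are not given in the sources used here, and depth limits which peaks reach a list. As deposited, fold enrichment is a ratio (pileup over local background) from MACS2. Significance stands as −log10 p-value and −log10 q-value per peak in the deposited lists, and the score that the authors deposited comes from the q-value. The lowest deposited −log10 q-value in the ChIP-seq lists was 1.32 (N-C1), so a peak missing from a list lies below a threshold of that order. The study also states an FDR cutoff for peak calling that is stricter than this, and the deposited lists did not keep to it. By default MACS2 keeps a single read per position and strand, which caps the reads over a base and narrows the differences among the strongest peaks.

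Peaks sharing at least 1 bp were merged. Consensus matches were exact, in 400 bp at the peak middle unless stated. Promoters ran from 1000 bp before to 100 bp after the start of any protein-coding transcript. Words of 31 bases were counted over the whole genome. Fold enrichment was read as (P + 1)/(λ + 1), with P a whole number of reads over a scale shared by the list and λ the background, and the p-value as the Poisson tail. Scale and lowest λ were solved for each list from its commonest values, and a solution had to return the deposited −log10 p within 0.01. Between 74.4% (full-length) and 82.2% (camptothecin) of peaks stood at the lowest λ. The reads, the groups of matches, words of 75 bases and the ratio within a list were added after values had been seen. Word counts, the shift of a repeat, consensus matching, overlap of peaks and recovery of reads were tested on made-up data with known answers. Merging of peaks, gene annotation, groups of matches and likeness were not.

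The genes, windows and lists were chosen with earlier results of these data known. Sites were named by rule: in each window the 5 strongest full-length peaks, the 2 with most matches, the largest peak of each list, the largest site without a full-length peak in the ∆HD and N-C1 lists, those overlapping ATAC peaks, those with copies and those within the genes. The other full-length peaks, the site found only after the drugs, the groups of matches and the ATAC-free stretch were chosen after their values were seen. Genes named were those of the windows, of the lists and the 5 nearest by likeness, leaving out genes within 2 Mb. There was 1 list per condition, so no test was run, and intervals cover counting error only. BLAST 2.17.0, samtools 1.23.1 and Python 3.11.15 were used, with numba 0.67.0, pandas 2.3.3, numpy 2.4.6, pysam 0.24.0, scipy 1.17.1 and matplotlib 3.10.9.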

Additional observations from a re-analysis of the deposited data

How the results depend on the processing

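For 14 results 32 alternatives were computed, and 25 stayed within the bounds set for them. With a flank of 100 kb the full-length peaks numbered 3 in place of 9 around A1CF and 2 in place of 9 around ADAMTS16, since the windows are shorter, and the strong site upstream of ADAMTS16 then falls outside. With the narrower consensus (CTAATAA or CTAATAG on either strand) the A1CF site held 5 matches in place of 8. In 150 bp at the middle in place of 400 bp the site upstream of ADAMTS16 held 5 in place of 14, over a shorter stretch. Words of 24 bases gave a copied share of 3.47% in place of 2.15% there. As whole copies by BLAST, with at least 90% identity over at least 80% of the peak, both strong peaks had 0 elsewhere. The peak between SGMS1 and ASAH2B at chr10:52479330-52479686 had 1 such copy, aligned over 365 bp at 92.9% identity. The shares of full-length peaks found in other lists stayed within their exact 95% intervals under a reciprocal overlap of 50% and a fold enrichment of at least 5, and the overlap with ATAC peaks stayed 0 of 18 under both alternatives. With words of 75 bases, an alternative chosen after seeing the data, the share repeated inside the peak was 30.5% in place of 46.2% upstream of ADAMTS16 and 0 in place of 4.59% at the A1CF site. No paired analysis was possible because each condition had 1 list, and no list could be left out in turn for the same reason.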
